A study of Mus musculus with 8 samples.

Results

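The genes described here are the G1 cyclins and the kinases they activate: the D cyclin genes Ccnd1, Ccnd2 and Ccnd3, the cyclin E genes Ccne1 and Ccne2, and the kinase genes Cdk4, Cdk6 and Cdk2. They were chosen by symbol, and all 8 were found among the 43432 gene IDs of the deposited count table. RNA sequencing of polyadenylated RNA had been carried out on mouse lenses at embryonic day 14.5, with 4 libraries of the genotype labelled control and 4 of that labelled Mettl3 CKO, read here as a conditional knockout of Mettl3, whose product is the methyltransferase that places N6-methyladenosine (m6A) on mRNA. Each genotype has replicates a to d, and replicates a and b (set 1) stand apart in the series records from replicates c and d (set 2). Neither a Cre driver, nor the alleles of the controls, nor the strain is labelled, and the number of lenses or animals pooled in a library is not stated, so the spread between libraries may be partly technical. The comparison asks how the transcripts of G1 progression differ where Mettl3 is reduced in a tissue in which epithelial cells leave the cell cycle as they become fiber cells.

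D cyclins are made in response to growth factors and bind Cdk4 or Cdk6, and these kinases begin the phosphorylation of the retinoblastoma protein that frees E2F transcription factors. E2F factors then raise transcription of the cyclin E genes, whose products bind Cdk2 and drive the entry into DNA replication. In the mouse lens, proliferation is largely confined to the epithelium, and the exit from the cycle at the lens equator depends on retinoblastoma protein and on the kinase inhibitors p27 and p57.

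Promoter sequences are shown for the genes whose libraries separated the genotypes in the results that follow (Ccne1, Cdk2 and Cdk6), of which only Ccne1 passed the test. That of Cdk4, a kinase gene whose libraries did not separate them, is shown as well. Each is the 250 bases before a RefSeq transcript start on GRCm38.p6, read 5′ to 3′ on the gene's own strand. Capitals mark TCCCGC or its reverse complement GCGGGA, the core of the site bound by E2F factors, and the palindrome CACGTG, the E-box bound by Myc and related factors. Ccne1 lies on the minus strand (chr7:38107491-38107740), as does Cdk2 (chr10:128705052-128705301), while Cdk6 (chr5:3343643-3343892) and Cdk4 (chr10:127063285-127063534) lie on the plus strand. The Cdk6 start is 2408 bases inside the gene as GENCODE annotates it, while those of the other 3 lie within 44 bases of the annotated gene start.
Ccne1: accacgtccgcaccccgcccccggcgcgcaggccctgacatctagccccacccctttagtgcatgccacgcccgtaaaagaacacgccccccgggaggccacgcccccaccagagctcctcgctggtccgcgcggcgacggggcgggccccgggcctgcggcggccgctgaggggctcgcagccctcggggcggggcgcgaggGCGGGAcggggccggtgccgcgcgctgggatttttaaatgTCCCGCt
Cdk2: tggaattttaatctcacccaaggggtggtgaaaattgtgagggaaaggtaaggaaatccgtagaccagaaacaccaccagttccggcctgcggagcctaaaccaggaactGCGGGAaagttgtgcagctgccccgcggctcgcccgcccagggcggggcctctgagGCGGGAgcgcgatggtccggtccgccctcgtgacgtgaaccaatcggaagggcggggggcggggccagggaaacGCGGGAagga
Cdk6: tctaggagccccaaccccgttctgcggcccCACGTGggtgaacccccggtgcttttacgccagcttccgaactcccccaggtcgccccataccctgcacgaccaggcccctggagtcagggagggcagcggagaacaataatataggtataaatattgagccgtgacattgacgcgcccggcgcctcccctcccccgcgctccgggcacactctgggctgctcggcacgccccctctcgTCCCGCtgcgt
Cdk4: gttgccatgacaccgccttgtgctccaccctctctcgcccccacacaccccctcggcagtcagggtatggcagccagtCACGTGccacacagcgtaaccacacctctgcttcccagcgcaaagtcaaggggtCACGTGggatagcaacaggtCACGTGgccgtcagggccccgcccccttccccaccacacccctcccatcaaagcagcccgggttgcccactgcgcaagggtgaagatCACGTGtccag

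The E2F core occurred in the windows of Ccne1 (2 matches), Cdk2 (3 matches) and Cdk6 (1 match). One of the Ccne1 matches lay 7 to 2 bases before the start and the other 47 to 42 bases before it. Over 32851 windows of the same length, 16.9% held the core at least once and 0.712% held it 3 or more times. The Cdk4 window held no E2F core and 4 E-boxes, at 172, 118, 98 and 11 bases before the start, a number reached by 0.021% of the windows, and 6.02% of windows held at least 1 E-box. Cdk6 held 1 E-box as well. Both windows listed for Ccnd3 held neither motif, and Ccnd1, Ccnd2 and Ccne2 had no window in the table used here. A match describes letters in the window and does not show that a factor binds there. The 4 windows shown were chosen by the levels in these libraries and held 63.2% to 76.0% GC, to which the 32851 windows were not matched. A relation of the motifs to the genotype was not tested.

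The libraries held between 19110170 and 56098211 gene counts. Depth differed between the sets, with 19110170 to 25662135 counts in set 1 and 45310168 to 56098211 in set 2. Mettl3 itself stood at 21.4 to 28.4 CPM (counts relative to the TMM-scaled library size) in control libraries and at 8.11 to 15.9 CPM in CKO libraries (log2 fold change -1.02, SE 0.15, edgeR adjusted p = 0.00259). Of the 16241 genes tested, 10.5% were called at an adjusted p under 0.05, 6.5% as higher and 4.01% as lower in CKO lenses. Of the calls, 61.8% were higher, against 89.1% with library totals in place of TMM and 48.8% once each library's trend with exon length and GC content was taken out. The scaling by library totals moved the median log2 fold change of all genes by 0.15. All lens fiber markers checked, Cryaa, Mip and Bfsp1 among them, and all lens epithelial markers, Foxe3 and Pax6 among them, were present in every library.

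In control lenses the G1 transcripts were dominated by Ccnd2, Cdk4 and Ccnd1. Per kilobase of annotated exon (RPKM on the TMM scale), Ccnd2 had a mean level of 66.2 ± 10.04 and Cdk4 of 61.2 ± 6.39 (SD, n = 4 each), and their ranges overlapped. Ccnd1 followed at a level of 40.9 ± 3.72 RPKM (SD, n = 4), below every Cdk4 value, and Ccnd3 at 20.5 ± 2.70 RPKM (SD, n = 4), below every Ccnd1 value. Ccne1 was at a level of 5.61 ± 0.798 RPKM, with Ccne2 at 3.71 ± 0.586 and Cdk2 at 3.62 ± 0.259 RPKM (SD, n = 4 each). The ranges of Ccne2 and Cdk2 overlapped, and both lay below that of Ccne1. Cdk6 was the rarest at 0.465 ± 0.0681 RPKM (SD, n = 4), in the 18.3rd percentile of tested genes, where Ccnd2 stood in the 96.7th and Cdk4 in the 96.5th. Levels per kilobase rest on the annotated exon length, which for Cdk6 is 13.989 kb, and are too low where part of that length is not used in the lens.

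In CKO lenses this order held with 1 difference, as Cdk4, at a mean level of 65.4 ± 2.91 RPKM, stood above Ccnd2 at 52.5 ± 9.77 RPKM (SD, n = 4 each). Ccnd2 ranged there from 42.7 to 63.2 RPKM and overlapped both Cdk4 (62.6 to 68.2 RPKM) and Ccnd1 (40.7 to 59.9 RPKM). Ccne1, at a level of 14.8 ± 4.06 RPKM (SD, n = 4), reached into the range of Ccnd3, with 18.5 RPKM in its highest library against 17.9 RPKM in the lowest library of Ccnd3.

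Ccne1, the cyclin gene of the entry into DNA replication, was the only one of the 8 genes to pass the test, and it rose in CKO lenses. Ccne1 (ENSMUSG00000002068, mm10 chromosome 7, 38097984 to 38107534, minus strand, protein coding) stood at 14.1, 13.2, 14.4 and 18.03 CPM in control replicates a to d. In the CKO replicates a to d it stood at 35.5, 26.0, 49.3 and 46.9 CPM. Every CKO library was above every control library, and the CKO libraries of set 2 were higher than those of set 1. The rise was 2.59-fold (95% interval 2.10 to 3.20, log2 fold change 1.37, SE 0.14, edgeR adjusted p = 0.000565). Among the 1055 genes that rose, it had the rank 112 by fold change. The log2 fold change was 1.15 (SE 0.17) in set 1 in set 1 and 1.604 (SE 0.16) in set 2 in set 2, and the call held in all 8 fits that leave out 1 library (log2 fold change 1.27 to 1.51, adjusted p 0.000122 to 0.00608).

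Ccne2, the other cyclin E gene (ENSMUSG00000028212, chromosome 4, 11191351 to 11204779, plus strand), did not pass. It stood at 11.7, 10.8, 14.9 and 14.6 CPM in control replicates a to d and at 20.6, 13.4, 20.03 and 16.8 CPM in the CKO replicates. CKO b lay within the range of the controls and the other 3 CKO libraries lay above it. The fitted value was 0.46 on the log2 scale (SE 0.15, 95% interval 0.12 to 0.79, edgeR adjusted p = 0.0786). It passed with library totals (0.60, adjusted p = 0.029), without the filter on low counts (0.45, adjusted p = 0.0471, where 8.93% of all genes passed), in DESeq2 (0.46, adjusted p = 0.0373) and with length and GC trends removed (0.44, adjusted p = 0.0317). Over all genes, 11.1% were called with library totals, 15.2% in DESeq2 and 13.2% with those trends removed. Exons of Ints8, on the opposite strand, overlap 609 bases of Ccne2 exons. Ints8 averaged 61.8 CPM in the control and 48.5 CPM in the CKO libraries (adjusted p = 0.0651), and how reads of the shared bases were assigned was not tested.

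**Figure D1:**
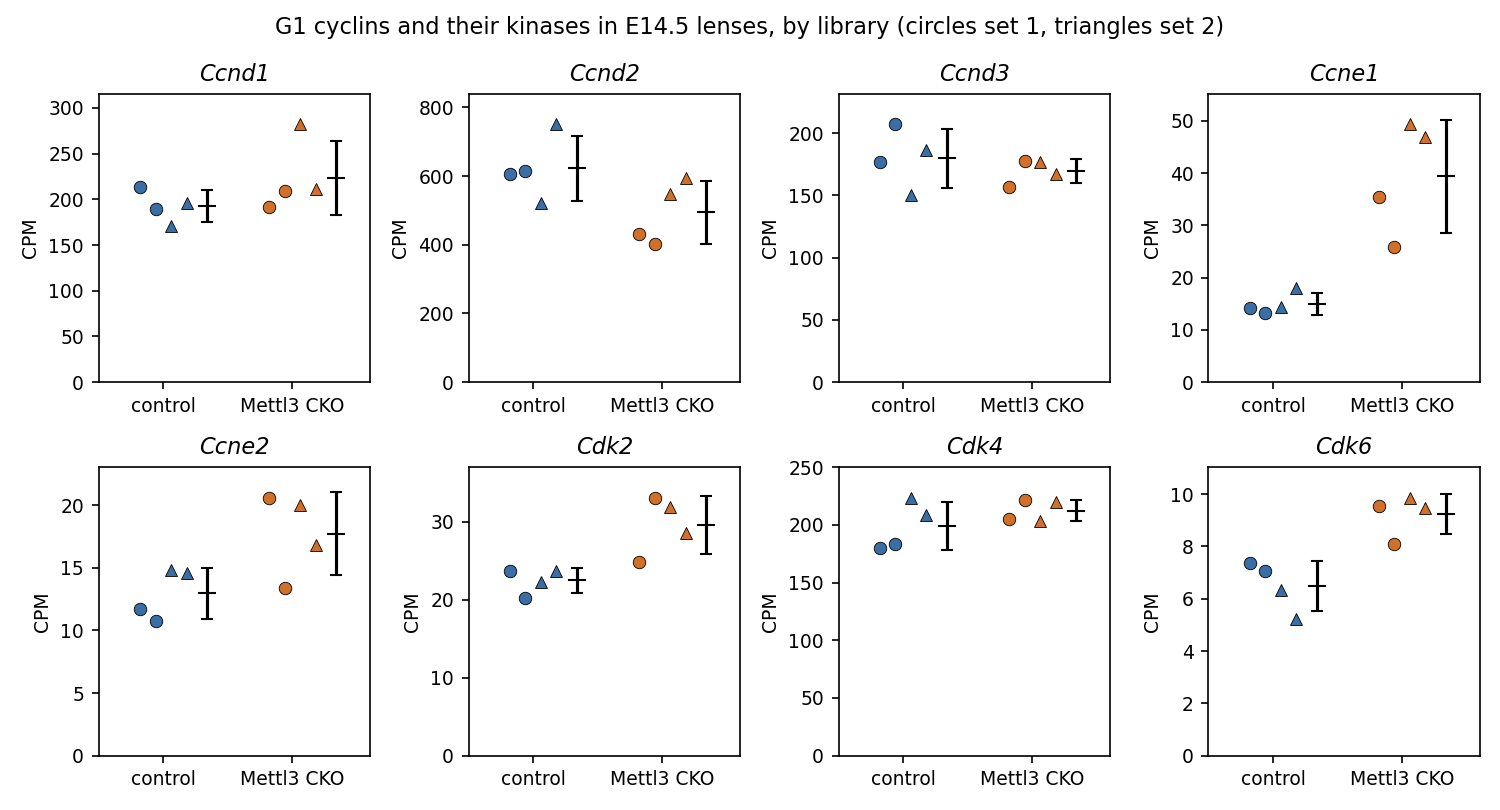
Level of each gene in CPM (y axes, from 0) in the 4 control libraries (blue) and the 4 Mettl3 CKO libraries (orange), with circles for set 1 (replicates a and b) and triangles for set 2 (c and d). Bars give the mean and SD of each genotype. The 2 genotypes separate without overlap for Ccne1 (13.2 to 18.03 against 26.0 to 49.3 CPM), Cdk2 and Cdk6, and overlap for the other 5 genes.

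None of the D cyclin genes passed the test over all libraries. Ccnd2, the most abundant of them (ENSMUSG00000000184, chromosome 6, 127125162 to 127152193, minus strand), stood at 604.9, 614.4, 522.5 and 750.5 CPM in control replicates a to d. The CKO replicates a to d stood at 432.1, 402.2, 549.0 and 594.4 CPM. The 2 CKO libraries of set 1 lay below every control, while CKO c and CKO d lay within the range of the controls. The fitted value was -0.35 (SE 0.14, 95% interval -0.66 to -0.04, edgeR adjusted p = 0.138). In set 1 alone, where 8.63% of the genes tested were called, Ccnd2 fell by 0.57 (log2, SE 0.12, adjusted p = 0.0121). In set 2, with 4.99% of genes called, its value was -0.12 (SE 0.21, adjusted p = 0.783). The difference between the sets was 0.39 (SE 0.24, edgeR adjusted p of the interaction = 0.428) and did not pass. Control c held the lowest Ccnd2 level of the controls, and without control c Ccnd2 fell by 0.49 with an adjusted p of 0.00656. The fit without control c called 2553 of 15889 genes, beside 1706 of 16241 with all libraries.

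Ccnd1 (ENSMUSG00000070348, chromosome 7, 144929931 to 144939925, minus strand) stood at 213.7, 189.5, 171.3 and 196.2 CPM in control replicates a to d and at 191.4, 208.6, 281.9 and 211.2 CPM in the CKO replicates. CKO c was the only CKO library above the range of the controls. The fitted value was 0.21 (SE 0.13, 95% interval -0.09 to 0.50, edgeR adjusted p = 0.357), and it was 0.07 without CKO c and 0.12 without control c. In set 1 it was -0.03 and in set 2 it was 0.46 (SE 0.19, adjusted p = 0.181). Ccnd3 (ENSMUSG00000034165, chromosome 17, 47505051 to 47599691, plus strand) ranged from 149.9 to 207.0 CPM in controls and from 156.9 to 177.5 CPM in CKO lenses, all within the range of the controls. Its fitted value was -0.08 (SE 0.11, 95% interval -0.33 to 0.17, edgeR adjusted p = 0.695), and 0.07 with library totals or in set 2 alone. Opposite-strand genes share exonic bases with each D cyclin gene: LTO1 with Ccnd1 (1100 bases), 9330179D12Rik with Ccnd2 (368 bases) and Bysl with Ccnd3 (361 bases). None of these 3 passed (adjusted p 0.111 to 0.355). Gm43126, which shares 372 exonic bases with Ccnd2, was not analysed here. The intervals of the D cyclin genes leave room for changes of Ccnd1 up to 1.42-fold and of Ccnd3 between 0.796-fold and 1.122-fold.

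Among the kinase genes, the levels of Cdk2 and Cdk6 did not overlap between the genotypes, and neither passed the test. Cdk2, the partner of cyclin E (ENSMUSG00000025358, chromosome 10, 128697939 to 128705031, minus strand), stood at 23.7, 20.3, 22.4 and 23.7 CPM in control replicates a to d and at 24.8, 33.1, 31.9 and 28.6 CPM in the CKO replicates. CKO a lay just above the highest control. The fitted value was 0.40 (SE 0.12, 95% interval 0.14 to 0.65, edgeR adjusted p = 0.0515). Set 1 gave 0.38 and set 2 gave 0.43. It passed with library totals (0.54, adjusted p = 0.0284), without the filter (0.39, adjusted p = 0.0438), in DESeq2 (0.41, adjusted p = 0.024) and without CKO a (0.47, adjusted p = 0.038). The fit without CKO a called 1159 of 17137 genes. The pigment cell gene Pmel overlaps 34 bases of Cdk2 exons from the opposite strand. Pmel stood at 2.16 to 4.49 CPM in controls and at 3.22 to 16.0 CPM in CKO libraries, and its part in the Cdk2 counts was not tested.

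Cdk6, one of the partners of D cyclins (ENSMUSG00000040274, chromosome 5, 3341485 to 3531008, plus strand), stood at 7.38, 7.06, 6.33 and 5.23 CPM in control replicates a to d. The CKO replicates stood at 9.55, 8.10, 9.85 and 9.46 CPM, all above the controls. The fitted value was 0.52 (SE 0.16, 95% interval 0.17 to 0.87, edgeR adjusted p = 0.0594). Set 1 gave 0.27 and set 2 gave 0.78. Cdk6 passed with library totals (0.67, adjusted p = 0.0348), in DESeq2 (0.54, adjusted p = 0.0243) and with length and GC trends removed (0.54, adjusted p = 0.0295). It was the least counted of the 8 genes, with 160 to 561 counts per library. Gm17590, annotated on the opposite strand over 368 bases of Cdk6 exons, was not analysed here.

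Cdk4, the abundant partner of D cyclins (ENSMUSG00000006728, chromosome 10, 127063534 to 127067920, plus strand), stood at 179.7, 183.6, 223.4 and 208.3 CPM in control replicates a to d and at 205.4, 221.5, 203.3 and 219.7 CPM in the CKO replicates. Every CKO library lay within the range of the controls. The fitted value was 0.10 (SE 0.10, 95% interval -0.12 to 0.32, edgeR adjusted p = 0.561), which bounds a change at between 0.922-fold and 1.25-fold. Exons of Tspan31, on the other strand, overlap 641 bases of Cdk4 exons, and Tspan31 had a value of -0.23 (adjusted p = 0.181).

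**Figure D2:**
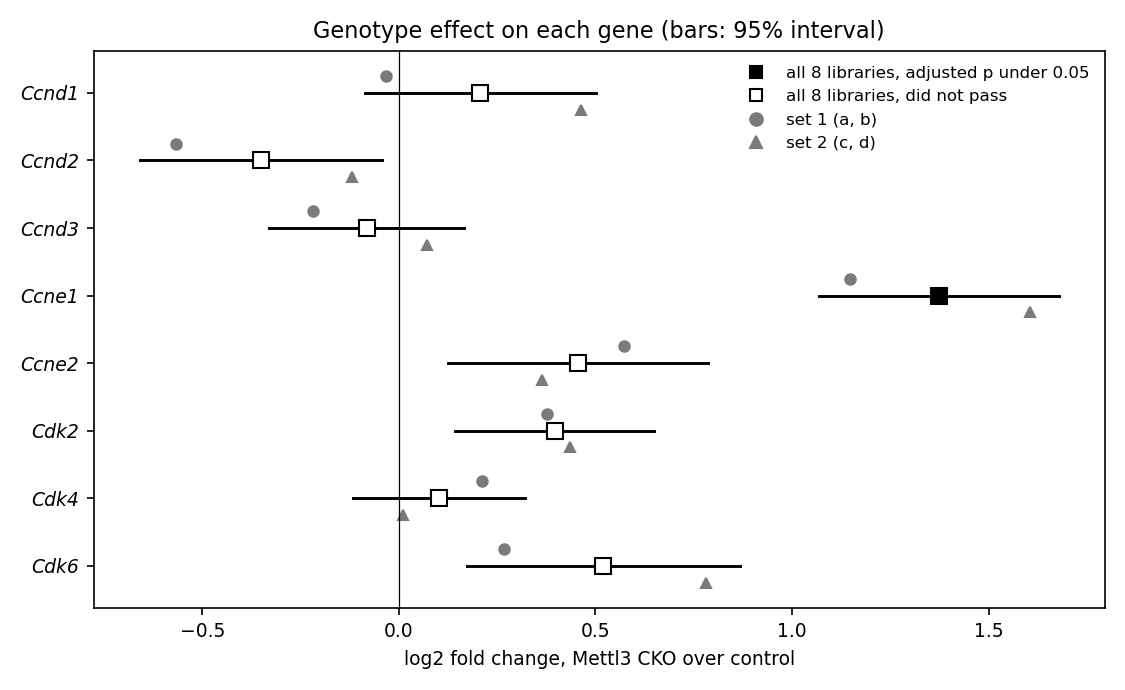
Log2 fold change of CKO over control lenses for each gene. Squares and bars give the value and 95% interval over all 8 libraries, filled where the adjusted p is under 0.05, and grey circles and triangles give the values within set 1 and set 2. Only Ccne1 (1.37) is filled, the intervals of Ccnd2, Ccne2, Cdk2 and Cdk6 leave out 0 before adjustment, and those of Ccnd1, Ccnd3 and Cdk4 include it.

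Of the 8 genes, 1 was called, against 10.5% of all tested genes. Without adjustment, 5 had a p under 0.05, as had 26.5% of all tested genes. For 3 of the 8 every library of one genotype lay beyond those of the other, all higher in CKO lenses, where this held for 16.3% of all tested genes and for 8.96% in that direction. The median fitted value of the 8 was 0.30, beside -0.03 over all genes tested. The test of a different genotype effect in the 2 sets called none of the 8 (edgeR adjusted p 0.348 to 0.995) and 0 of all tested genes, of which 2662 had an unadjusted p under 0.05.

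The make-up of each family is free of the scaling between libraries, since its members are counted in the same library. Per kilobase, Ccne1 made up 61.3%, 61.7%, 56.1% and 61.9% of cyclin E transcripts in control replicates a to d. In the CKO replicates it made up 69.4%, 71.7%, 76.4% and 78.6%, all above the controls. The mean share was 60.2% ± 2.79 for control and 74.0% ± 4.20 for CKO libraries (SD, n = 4 each), a difference of 13.8 percentage points, with 9.09 points in set 1 and 18.5 points in set 2. The exact permutation test, two-sided, gave p = 0.0286, the smallest that 4 against 4 libraries allow, and 0.1 after adjustment over the 7 shares compared.

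Among D cyclins, the share of Ccnd1 was larger in all 4 CKO libraries than in the controls. Ccnd1 made up 34.96%, 31.2%, 33.4% and 29.2% of D cyclin transcripts in control replicates a to d and 38.9%, 41.3%, 43.3% and 35.3% in the CKO replicates. The means were 32.2% ± 2.52 and 39.7% ± 3.43 (SD, n = 4 each), a difference of 7.52 points (two-sided exact permutation p = 0.0286, adjusted p = 0.1), with 7.04 points in set 1 and 7.99 points in set 2. The share of Ccnd2 was 51.7% ± 2.84 for control and 43.9% ± 4.21 for CKO libraries (SD, n = 4 each, exact permutation p = 0.0571, adjusted p = 0.12), where CKO d at 49.7% lay just above control a at 49.5%. That of Ccnd3 was 16.1% ± 1.499 and 16.4% ± 1.99 (SD, n = 4 each, exact permutation p = 0.857). Neither Ccnd1 nor Ccnd2 passed alone over all libraries, and their shares differed by a similar amount in both sets. The shares are parts of the same sum, so a larger share of Ccnd1 and a smaller share of Ccnd2 are not separate results. The fitted values of the genes were uneven, with Ccnd1 at -0.03 in set 1 and 0.46 in set 2. Ccnd2 stood at -0.57 in set 1 and -0.12 in set 2.

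Cdk4 made up 93.7% ± 0.715 of the kinase transcripts of control and 92.3% ± 0.735 of those of CKO libraries (SD, n = 4 each), a difference of -1.35 points that did not pass (two-sided exact permutation p = 0.0857, adjusted p = 0.12). The share of Cdk2 was 5.58% ± 0.605 and 6.72% ± 0.751 and that of Cdk6 0.722% ± 0.163 and 0.936% ± 0.112 (SD, n = 4 each), with overlap between the genotypes for both. Summed per kilobase, D cyclin transcripts were at a level 13.8 ± 2.13 times that of cyclin E transcripts in control and 6.17 ± 1.15 times in CKO libraries (SD, n = 4 each). The lowest control ratio was 11.3 and the highest CKO ratio was 7.89. The D cyclin sum was 127.6 ± 13.9 RPKM in control and 119.3 ± 16.2 RPKM in CKO libraries (SD, n = 4 each), with overlap. The cyclin E sum was 9.32 ± 1.27 and 19.9 ± 4.68 RPKM (SD, n = 4 each). The ratio thus largely restates the higher Ccne1 level. These sums and ratios were chosen after the values were seen and were not tested.

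**Figure D3:**
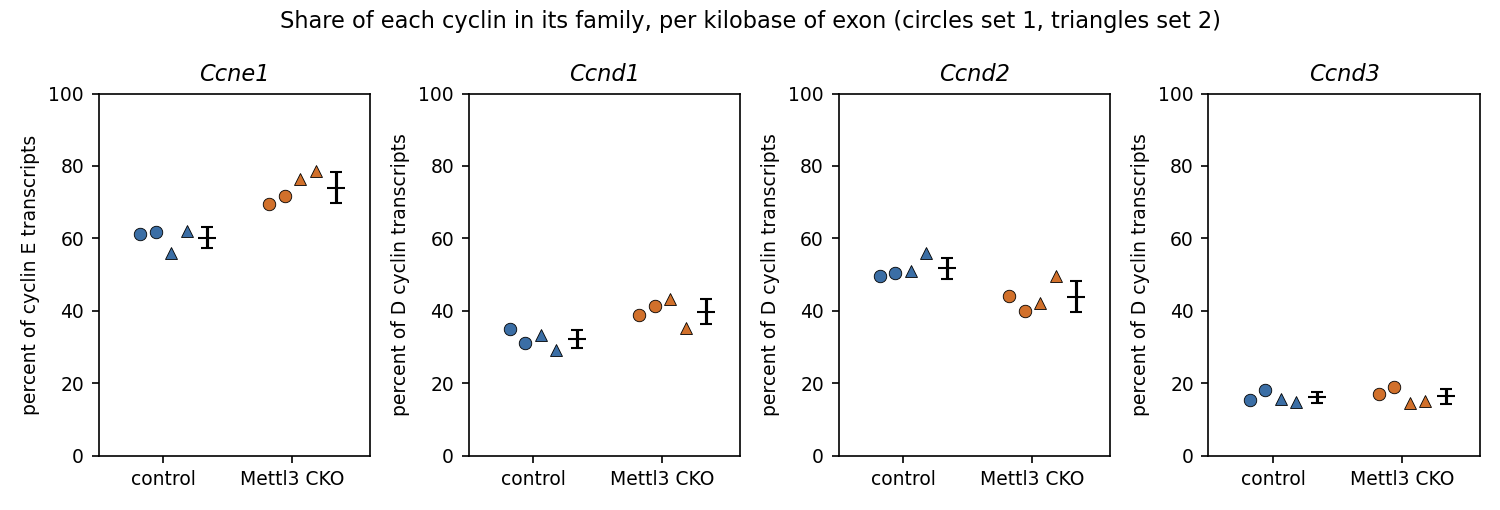
Share of Ccne1 among cyclin E transcripts and of Ccnd1, Ccnd2 and Ccnd3 among D cyclin transcripts (y axes, percent of the summed level per kilobase), by library, with the mean and SD of each genotype. Blue marks control and orange Mettl3 CKO libraries, with circles for set 1 and triangles for set 2. The shares of Ccne1 and Ccnd1 lie higher in all CKO libraries than in any control (35.3% to 43.3% against 29.2% to 34.96% for Ccnd1), while Ccnd3 overlaps.

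Inhibitors of these kinases moved in either direction. Of 7 inhibitor genes tested, 2 rose and 1 fell, beside 6.5% and 4.01% of all tested genes. Cdkn1b, whose product p27 holds cyclin E and Cdk2 inactive, fell from 80.4 CPM ± 11.3 to 59.1 CPM ± 2.53 (SD, n = 4 each, log2 fold change -0.44, edgeR adjusted p = 0.0271), a call that held only without control a or control c and ended without any other library (adjusted p up to 0.116). It also ended with library totals, at -0.29 (adjusted p = 0.175), and in set 2 alone, at -0.36 (adjusted p = 0.254). Cdkn1a, the gene of p21, rose by 0.97 (SE 0.16, adjusted p = 0.00498). Cdkn2d, which encodes an inhibitor of Cdk4 and Cdk6, rose by 0.46 (SE 0.11, adjusted p = 0.0273). Among the fits that leave out 1 library, it was called only without control c or CKO b (adjusted p up to 0.107). For Cdkn1c, the gene of p57, the value was -0.11 (adjusted p = 0.676). Per kilobase, the ratio of the Ccne1 level to the Cdkn1b level was 0.255 to 0.386 in control libraries and 0.716 to 1.46 in CKO libraries, chosen after the values were seen and not tested.

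Of the genes of the retinoblastoma family, the substrates of these kinases, none of 3 passed, with Rb1 at -0.07 (SE 0.13, adjusted p = 0.761). Of 10 genes for E2F factors and their DP partners, E2f3, an activator, rose by 0.55 (SE 0.13, adjusted p = 0.0231) and E2f5, a repressor, fell by 0.56 (SE 0.11, adjusted p = 0.0136). Among all tested genes, 6.5% rose and 4.01% fell. E2f1 had a value of 0.43 (SE 0.15, adjusted p = 0.0903). Leaving out control d ended the E2f5 call (adjusted p = 0.0556). The E2f3 call held only without control a, control c or CKO b (adjusted p otherwise up to 0.0871).

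Genes transcribed under E2F at the entry into S phase had higher fitted values in CKO lenses. Of 25 tested, 10 rose and none fell, where 6.5% and 4.01% of all tested genes did so. Of the 25 values, 24 lay above 0. The list was chosen with earlier results of these data known, so its counts are given as a description. With a term for the replicate letter, only the Tk1 call of the 10 held. The list median was 0.37 (set 1 gave 0.32, set 2 gave 0.37), beside -0.03 over all genes tested. Tk1, a thymidine kinase gene, rose by 1.25 (SE 0.10, edgeR adjusted p = 0.000184). Its mean was 28.1 CPM ± 2.23 in control and 66.6 CPM ± 5.86 in CKO libraries (SD, n = 4 each). Mcm7, which encodes a subunit of the replicative helicase, rose by 0.45 (adjusted p = 0.0162), Rrm2, for the small subunit of ribonucleotide reductase, by 0.53 (adjusted p = 0.0163), and Chaf1b, for a subunit of a histone chaperone, by 0.51 (adjusted p = 0.0213). Cdc6, which loads the helicase, rose by 0.52 (adjusted p = 0.0223) and Chaf1a by 0.52 (adjusted p = 0.0263). Of these 6, only the Tk1 call held in all 8 fits that leave out 1 library, and those of the other 5 ended without control b, without control d and without CKO d, and for all but Mcm7 without others as well (adjusted p up to 0.117).

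Of 9 genes that activate or restrain them, Cdk7, the kinase that activates them all, rose by 0.31 (SE 0.09, edgeR adjusted p = 0.045) and Cdc25a, a phosphatase that removes an inhibitory mark from Cdk2, by 0.34 (SE 0.09, adjusted p = 0.046). Leaving out any single library ended the Cdc25a call (adjusted p up to 0.166), and any but control c that of Cdk7 (up to 0.158). Of 15 genes for the turnover of cyclins and inhibitors, Skp2, which marks p27 for destruction, rose by 0.45 (SE 0.09, adjusted p = 0.0107). Among the fits that leave out 1 library, its call ended only without CKO d (adjusted p = 0.0609). The Skp2 call also ended in set 2 alone (0.49, adjusted p = 0.0863) and with a term for the replicate letter (0.45, adjusted p = 0.0513). Fbxw7, which marks cyclin E for destruction, had a value of 0.16 (SE 0.14, adjusted p = 0.508). These counts stand beside 6.5% of all tested genes that rose.

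Of 6 genes tested among the later cyclins and Cdk1, only Ccnf, which encodes a cyclin that acts in a ubiquitin ligase, rose (0.53, SE 0.12, edgeR adjusted p = 0.0172), and its call ended without control b, control d, CKO b, CKO c or CKO d (up to 0.0834). The cyclins of S phase and mitosis did not pass, with Ccna2 at 0.14 (SE 0.10, adjusted p = 0.4) and Ccnb1 at 0.21 (SE 0.10, adjusted p = 0.24), nor did Cdk1 at -0.01 (SE 0.15, adjusted p = 0.965). Of 24 other cyclin and kinase genes, 3 rose, among them Ccnl2, a cyclin of splicing (0.61, SE 0.10, adjusted p = 0.00597), and Cdk9, a kinase of transcription elongation (0.60, SE 0.16, adjusted p = 0.0393), the third being Cdk7. The Ccnl2 call held without any 1 library, and that of Cdk9 only without control a or control c (adjusted p otherwise up to 0.12). Of 14 regulators of D cyclin transcription, Foxo3 rose by 0.50 (SE 0.11, adjusted p = 0.0211, up to 0.0824 without control b, control d, CKO c or CKO d) and 13 did not pass. For these lists too, 6.5% of all tested genes rose.

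**Figure D4:**
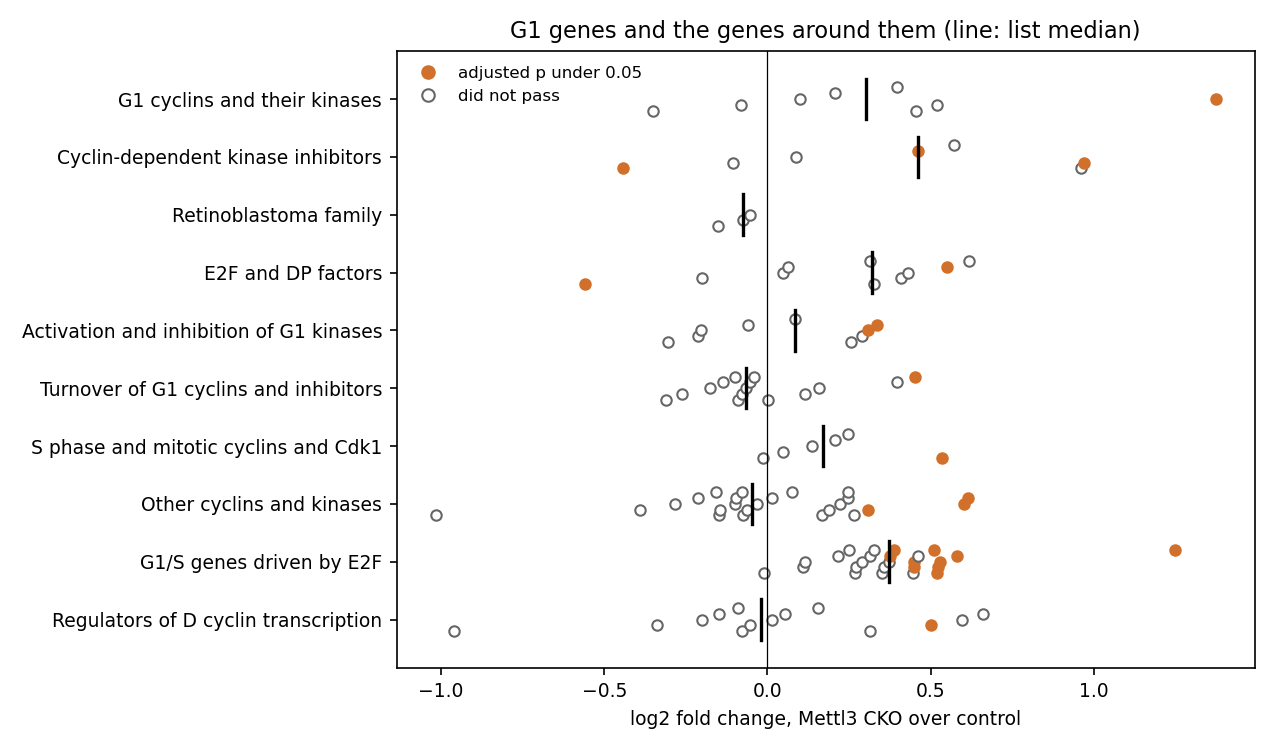
Log2 fold change of CKO over control lenses (x axis) for every tested gene of the 8 G1 genes and of 9 lists of genes around them (rows). Filled points have an adjusted p under 0.05 and vertical lines give list medians. Ccne1 (1.37) lies beyond the other G1 genes, and 24 of the 25 genes driven by E2F lie above 0, with Tk1 at 1.25.

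Over the 111 distinct genes of these lists, 20 rose and 2 fell, beside 6.5% and 4.01% of all tested genes. The lists were chosen with earlier results of these data known, so these counts too are a description. Of these 22, 3 (Cdkn1a, Tk1 and Ccnl2) kept their call whichever library was left out. The number called dropped to 4 on leaving out either control d or CKO d, to 5 for control b, to 7 for CKO c and to 14 for CKO b. Calls over all genes dropped in these fits as well, from 1706 to 503 for control d and 651 for CKO d. They numbered 780 for control b, 846 for CKO c and 1179 for CKO b. In each set alone 13 of the 22 calls ended. Library totals ended that of Cdkn1b, RLE size factors that of Cdc25a, the fit without the filter those of Cdc25a and Cdk7, and the removal of length and GC trends those of Cdk9 and Mcm5. A term for the replicate letter ended 19 of the 22, and the fit without the set term ended 5.

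Several transcripts followed Ccne1 closely over the 8 libraries. Among 10780 genes averaging 5 CPM or more in either genotype, the highest Pearson correlations of log2 CPM with Ccne1 were those of Khdrbs3 (0.997), Hpcal1 (0.996), Tst (0.996), Pygo1 (0.995) and Bag5 (0.995). All 5 rose in CKO lenses, by 1.42, 0.91, 0.90, 1.29 and 1.11 on the log2 scale in this order (edgeR adjusted p 0.00057 to 0.00327). All genes share the genotype, set and depth of each library, and the highest of so many correlations over 8 points are high by selection. These correlations are therefore given as a description. The gene most like Cdk2 was Siah2 (0.986), that most like Cdk6 was Galnt16 (0.979) and that most like Ccne2 was Rbbp8 (0.980). Ccnd1, Ccnd2, Ccnd3 and Cdk4 were followed most closely by Fam84b (0.977), Strada (0.979), Safb (0.985) and Cd320 (0.966).

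In whole lenses, a different number of cells that express a gene and a different amount of its RNA per cell cannot be told apart. The counts of markers that follow stand beside 6.5% of all tested genes that rose and 4.01% that fell. Of 8 lens epithelial markers 1 rose and 3 fell, and their summed level was 1955 to 2540 CPM in controls and 2205 to 2615 CPM in CKO libraries. Of 10 fiber markers 2 fell, with a median fitted value of -0.31. Their summed level was 133591 to 168847 CPM in controls and 104764 to 136632 CPM in CKO libraries. It was 104764 and 111266 CPM in CKO c and CKO d, with the most Ccne1, and 136632 and 128119 CPM in CKO a and CKO b. Of 7 macrophage markers 4 rose, and their sum was 29.2 to 45.4 CPM in controls and 44.8 to 111.0 CPM in CKO libraries. The 2 CKO libraries with the most macrophage transcripts, a and b (106.2 and 111.0 CPM), were those with the least Ccne1. CKO c and CKO d, with the most Ccne1, had 51.7 and 44.8 CPM of macrophage transcripts. Vessel markers summed to 474.1, 705.4, 227.0 and 280.4 CPM in CKO a to d, with 236.5 to 539.2 CPM in controls. In the same order, erythroid markers summed to 640.0, 2835, 281.9 and 313.0 CPM, with 356.5 to 1465 CPM in controls. Markers of cornea and mesenchyme summed to 62.7, 141.3, 26.0 and 51.4 CPM, with 38.5 to 193.3 CPM in controls. In these sums as in that of the fiber markers, CKO a and b against CKO c and d is also set 1 against set 2, and these cannot be told apart. CKO c, the highest in Ccne1, was also the highest in retinal markers (112.9 CPM), while CKO d, the next in Ccne1, was the lowest of the CKO libraries in them (13.5 CPM). CKO b, the lowest of the CKO libraries in Ccne1, was the lowest of them in pigment cell markers (4.23 CPM) and CKO a the highest (22.98 CPM). No call was made among 8 retinal markers (2.998 to 44.1 CPM summed in controls, 13.5 to 112.9 CPM in CKO libraries), 7 of vessels, 4 tested of pigment cells (3.17 to 6.996 against 4.23 to 23.0 CPM), 6 of erythroid cells and 6 tested of cornea and mesenchyme. The median fitted value was 1.87 for retinal, 1.57 for pigment cell, 0.13 for vessel, -0.41 for erythroid and -0.57 for cornea and mesenchyme markers. In retinal markers control a stood at 44.1 CPM, and controls b, c and d at 2.998, 6.01 and 4.98 CPM. Every CKO library lay above controls b, c and d in them. The part of these cells in the values of the G1 genes was not tested.

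**Figure D5:**
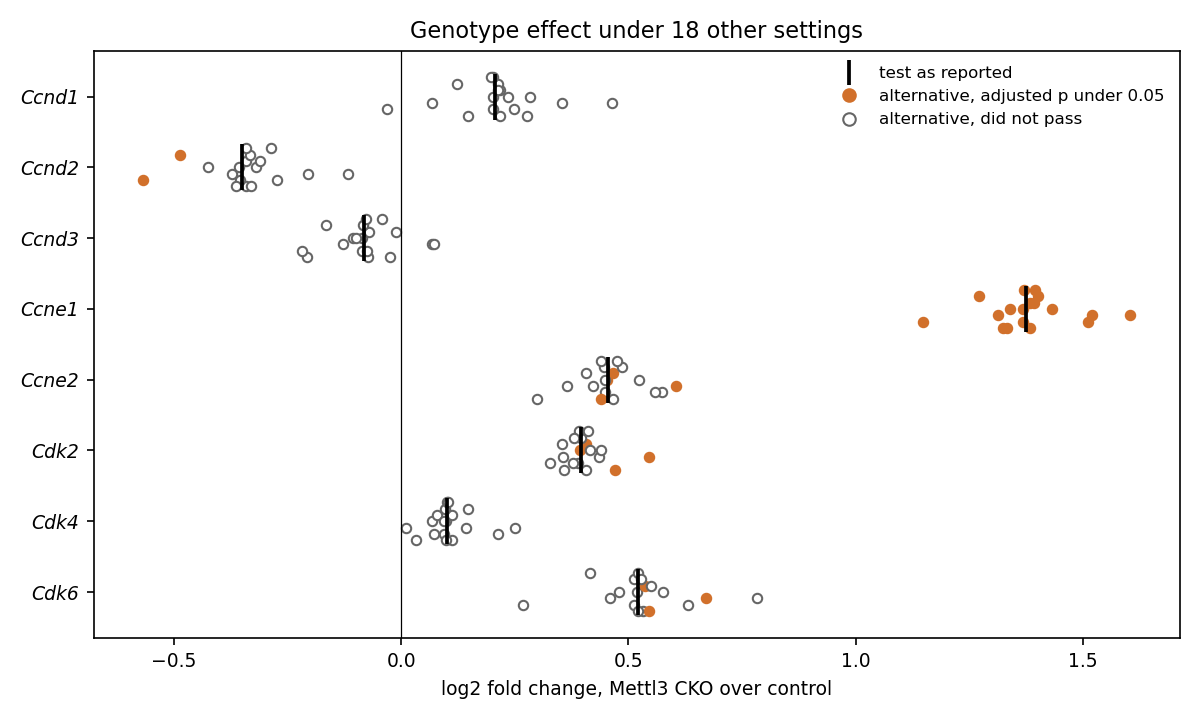
Log2 fold change of CKO over control lenses (x axis) for each G1 gene under 18 other settings (scalings, filter, tool, covariates, single sets and leaving out each library), filled where the adjusted p is under 0.05, with a vertical mark at the value reported. All 18 values of Ccne1 are filled and lie between 1.15 and 1.604, the values of Ccne2, Cdk2, Cdk4 and Cdk6 all lie above 0 with none of Cdk4 filled, and those of Ccnd1 and Ccnd3 lie on both sides of 0.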

How the data were processed

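The authors deposited 1 table of whole-number read counts per Ensembl gene, not normalised, for 8 libraries. The submitters' processing notes name CASAVA, HISAT2, featureCounts and build mm10, and per the labels' protocols libraries were made from polyadenylated RNA with an NEBNext Ultra kit. Versions, annotation and strand setting of the counting were not given in those sources, so reads of overlapping genes on opposite strands cannot be told apart. 7 of the 8 G1 genes overlap another annotated gene.

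Symbols, coordinates and exon lengths came from GENCODE M21 (mm10), which matched 42548 of the 43432 IDs. Tests on the counts used edgeR 4.0.16 under R 4.3.3, with filterByExpr (minimum count 10, minimum total count 15), TMM, and the robust quasi-likelihood test with set and genotype as terms, on 16241 genes, with Benjamini-Hochberg adjustment over all of them and a threshold of 0.05. SE is the log2 fold change divided by the root of F, and intervals use the t distribution. CPM and RPKM are on the TMM scale, and log2 CPM had a prior count of 2. Shares were set against each other by an exact permutation test, two-sided, with 70 arrangements of the genotype labels. The code was tested on simulated counts.

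The genes and lists were chosen with earlier results of these data known. Named genes were the 8 members, Mettl3, up to 6 called genes of each list by p, 9 genes given whatever their result, the genes most like a member, and genes within 1 kb of one. Alternatives were DESeq2 1.42.0, other scalings, filters and covariates, single sets, removal of length and GC trends, and leaving out each library. No library repeated another. Correlations of same-lettered libraries were of either sign, which does not exclude a pairing by replicate letter.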

Additional observations from a re-analysis of the deposited data

Results flagged for a closer look

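The share of Ccne1 among cyclin E transcripts in control c was 56.1%, while the other 3 controls stood between 61.3% and 61.9%. The gap is 0.892 of the range of the 4 controls, beyond Dixon's 95% critical value for a group of 4. It was the only one of 34 groups checked in which a library stood apart in this way, and chance marks about 1 in 20. Without control c the difference in share between the genotypes was 12.4 points.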

How the results depend on the processing

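Ccne1 was called under all 18 alternatives and was the only one of the 8 genes called in the main result. The number called was 4 with library totals (where 11.1% of all genes were called), 4 in DESeq2 (15.2%), 3 without the filter on low counts (8.93%) and 3 with length and GC trends removed (13.2%). It was 2 in set 1 alone (8.63%, Ccne1, and Ccnd2 lower) and 1 to 2 when each library was left out. The second was Ccnd2 without control c (2553 of 15889 genes called) and Cdk2 without CKO a (1159 of 17137 genes called). Over all genes, 1706 calls became 858 in set 2 alone and 503 to 2553 when each library was left out. The 22 calls among the lists became 4 to 30 when each library was left out. The sign turned for Ccnd1 in set 1 (-0.032), for Ccnd3 with library totals (0.068) and in set 2 (0.072), and for Cdkn1c in the same fits (0.038 and 0.063). Rb1 turned in those fits (0.076 and 0.13) and without CKO b (0.055, with -0.15 the lowest value when each library was left out). Safb turned in them too (0.062 and 0.10), Fbxw7 in set 1 (-0.013), Fam84b in set 1 (-0.018) and Strada with library totals (0.00088). Cdk1 turned with library totals (0.13), in set 1 (0.29), without control c (0.12) and without CKO b, CKO c or CKO d (0.014, 0.074 and 0.023), with -0.15 the lowest value when each library was left out. The causes were not tested. Of the 144 alternative values of the 8 genes, 128 kept their sign and side of the threshold, 13 passed in addition and 3 turned. Mettl3 lay between -1.13 and -0.89 when each library was left out, the Ccne1 share difference between 12.3 and 15.3 points, that of Ccnd1 between 6.33 and 8.98 points, and that of Cdk4 between -1.68 and -1.06 points. For the shares, the exact permutation test of 4 against 3 libraries cannot give a p under 0.0571, and one within a set none under 0.333.

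Whether the replicate letters pair the samples was not settled. Deviations of same-lettered libraries from their genotype means correlated at -0.20, 0.13, -0.42 and 0.46 for a, b, c and d, over 10622 genes. Those of differently lettered libraries correlated at -0.58 to 0.47. The deviations also hold the difference between the sets, so these correlations cannot exclude a pairing. With the replicate block, 665 genes were called over all, 3 in the lists and 1 of the 8 genes, Ccne1 (1.37, adjusted p = 0.00678). The share differences with the block were the same 13.8, 7.52 and -1.35 points (exact sign-flip p 0.125, 0.125 and 0.25, the first 2 being the smallest that 4 pairs allow).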
